A study of Mus musculus with 9 samples.

Results

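The early neural genes described here are 6 listed genes, Nes, Sox1, Pax6, Sox11, Tubb3 and Map2, out of 35532 gene symbols measured. They were taken by name, and the counts and TPM values of all transcripts of a symbol were summed in each clone. All 6 were measured, and all 6 had a mean of at least 1 CPM over the clones. Messenger RNA was sequenced from 9 clones of the mouse embryonic stem cell line E14, which the labels number 1, 4, 6, 8, 10, 11, 13, 14 and 17. All were grown on gelatin in medium with serum and leukaemia inhibitory factor, and no neural differentiation is described. The series picked clones for lipid droplet size, but the labels used here assign no size to any clone. No groups were therefore formed, and each clone is 1 library without a replicate.

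Embryonic stem cells that leave pluripotency without other signals tend to take a neural course. Sox1 is among the first genes of committed neural plate cells, Pax6 follows in radial glia and cortical progenitors, and Nes encodes the intermediate filament nestin of neural stem cells. Sox11 acts in cells that are becoming neurons, and Tubb3 and Map2 encode a beta-tubulin and a microtubule-associated protein used as neuronal markers. Several of these genes are not restricted to the neural lineage: nestin is also made in muscle and mesenchymal cells.

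All 9 listed embryonic stem cell markers were detected in every clone. Pou5f1 (Oct4) ran from 842 to 1295 CPM and Sox2 from 234 to 301 CPM, both lowest in clone 11. Nanog, Tfcp2l1 and Dppa5a, factors and a marker of the naive state, were the 3 with a range of 1 or more. Such a range, defined below, was seen in 35.2% of all genes. All 3 were lowest in clones 10 and 11. Nanog had 264 CPM in clone 10 and 246 in clone 11, against 281 to 527 elsewhere. Tfcp2l1 had 345 and 381 CPM there, against 610 to 829, and Dppa5a had 996 and 972 CPM, against 1447 to 2058. Pou5f1, Sox2 and Esrrb were lowest there too. Tdgf1 did not separate these clones, with 314 and 339 CPM, against 267 to 365.5 elsewhere. Zfp42 in clone 10 (708 CPM) and Klf4 in clone 11 (81.8 CPM) lay within the levels of the other clones. The summed TPM of the 9 markers was 5518 in clone 10 and 5563 in clone 11, against 6737 to 8530 elsewhere. Dppa5a, with a median of 4125 TPM, was the largest part of these sums. CPM are estimated counts scaled to effective library size, and TPM are also divided by transcript length. The gene totals ran from 10714590 counts in clone 1 to 14209076 in clone 6, and a count of 0 left room for 3 counts, or 0.207 to 0.287 CPM. Intervals of levels, folds and shares are exact at the 95% level and hold counting error alone.

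The levels of the members differed widely. Per length, Tubb3 stood far above the others, with a median of 92.4 TPM over clones and rank 1660 among 13363 genes by median TPM. Map2 (6.94 TPM), Pax6 (6.6 TPM), Nes (4.96 TPM) and Sox11 (3.28 TPM) lay close together, and Sox1 was lowest at 0.218 TPM. The ranges of Map2, Pax6, Nes and Sox11 over the clones overlapped, so their order is not firm.

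The members also differed in how much they varied. The range is the highest minus the lowest clone in log2 CPM with a prior count of 2. It was 4.10 for Sox1, 2.86 for Nes, 1.72 for Sox11, 1.36 for Pax6, 0.68 for Map2 and 0.48 for Tubb3. Of the 6 genes, 4 had a range of 1 or more, against 35.2% of the 13363 genes that averaged at least 1 CPM. A range of 2 or more was seen in 2 of the 6, against 7.92% of all genes. Both counts include Sox1, which reached a mean of 1 CPM only through clones 8, 14 and 17. It was below 1 CPM in every other clone, so a wide range was a condition of its passing. The median range was 1.54 over the 6 members and 0.79 over all genes. Counting noise was exceeded in all 6 (chi-square test of counts, adjusted over all genes by Benjamini-Hochberg). It was exceeded in 89.4% of all genes too, so this separates the libraries and says nothing particular of the members.

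**Figure D1:**
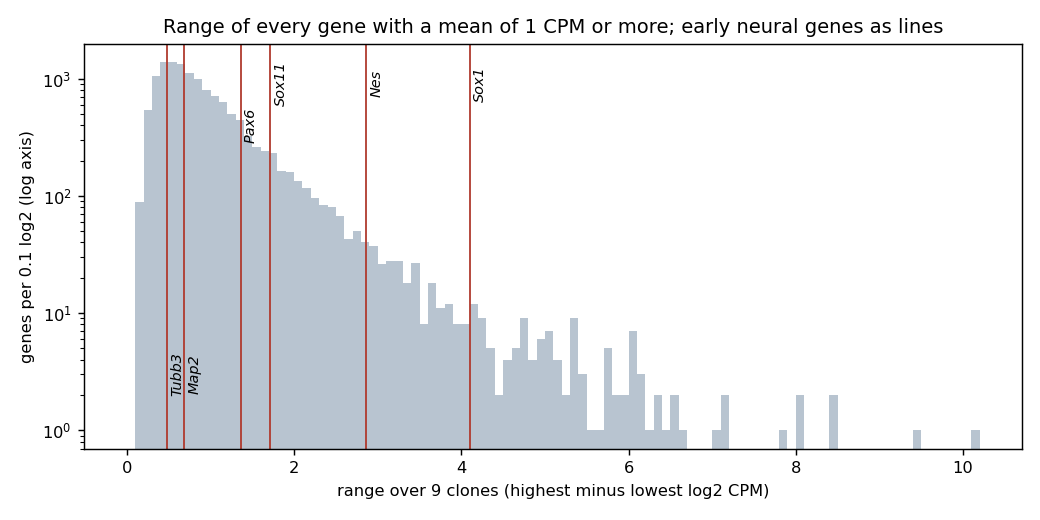
Distribution of the range over 9 clones (x axis, log2 CPM) for all 13363 genes that averaged 1 CPM or more (y axis, genes per bin, log axis). Red lines mark the early neural genes: Sox1 at 4.10 and Nes at 2.86 lie in the right tail, and Tubb3 at 0.48 and Map2 at 0.68 lie left of the median of 0.79.

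Pax6 and Map2 are read as several transcripts that differ in a short alternative exon. These exons are shown because the files give separate values for transcripts with and without them. The alternative exon of Pax6, chr2:105684751-105684792 on the plus strand of GRCm38, adds 14 residues to the DNA-binding paired domain. The alternative exon of Map2, chr1:66431527-66431619 on the plus strand, adds 31 residues, a further microtubule-binding repeat. Both were read from GENCODE M21 transcripts, with the exon in capitals and 15 bases of each neighbouring exon in lower case.
Pax6 alternative exon: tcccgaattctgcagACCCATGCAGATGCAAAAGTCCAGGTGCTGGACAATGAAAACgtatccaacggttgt
Map2 alternative exon: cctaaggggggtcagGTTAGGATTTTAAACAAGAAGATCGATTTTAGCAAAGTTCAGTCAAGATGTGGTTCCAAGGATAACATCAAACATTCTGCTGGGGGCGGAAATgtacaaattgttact

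Sox1 and Tubb3 lie on the same chromosome and had the widest and the narrowest range of the 6, so their promoter windows are set side by side. The windows run from 250 bases before to 50 bases after the RefSeq start in GRCm38.p6, at chr8:12395269-12395568 for Sox1 and chr8:123411303-123411602 for Tubb3, both on the plus strand. CG dinucleotides are in capitals.
Sox1 promoter: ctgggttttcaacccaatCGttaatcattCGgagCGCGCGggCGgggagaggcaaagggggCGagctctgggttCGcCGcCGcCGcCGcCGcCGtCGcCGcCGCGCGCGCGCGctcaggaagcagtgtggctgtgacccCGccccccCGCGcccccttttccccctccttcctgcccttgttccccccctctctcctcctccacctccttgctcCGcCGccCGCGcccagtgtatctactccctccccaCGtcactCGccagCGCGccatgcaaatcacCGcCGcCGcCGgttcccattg
Tubb3 promoter: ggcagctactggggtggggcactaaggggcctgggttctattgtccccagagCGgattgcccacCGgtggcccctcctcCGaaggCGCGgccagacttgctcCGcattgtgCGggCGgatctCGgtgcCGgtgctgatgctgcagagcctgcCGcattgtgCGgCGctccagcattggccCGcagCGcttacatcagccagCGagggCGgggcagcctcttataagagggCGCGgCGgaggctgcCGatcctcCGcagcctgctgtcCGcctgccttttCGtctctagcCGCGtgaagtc

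The Sox1 window held 37 CG and the Tubb3 window 26, against a median of 7 over all RefSeq windows of this length. RefSeq gave windows for all 6 members, with a second window for Pax6. The other counts were 37 for Map2, 21 for Sox11, 18 for Nes, and 18 and 16 for Pax6. Motifs were searched on both strands. The letters GGGCGG, the core of the GC box, were found in 5 of the 7 windows and in 35.7% of all windows. TATAAA was in 0 of the 7 and in 13.6% of all, and ACAAAG, a sequence bound by Sox proteins, in 1 of the 7 and in 18.7% of all. These are matches of letters only.

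Sox1 (chromosome 8, 12395295 to 12400126, GRCm38), a SoxB1 transcription factor of the neural plate, was higher in 3 clones and near the floor in the rest. Its CPM was 7.15 in clone 17, 5.3 in clone 8, 2.92 in clone 14, 0.777 in clone 6, 0.723 in clone 10, 0.67 in clone 1, 0.46 in clone 13, 0.456 in clone 4 and 0.277 in clone 11. In counts, 99, 74 and 40 reads in clones 17, 8 and 14 stood against 4 to 11 reads in each of the rest.

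Clone 17 exceeded clone 11 by 25.8-fold (interval 9.78 to 96.7). In the order of levels, clones 17 and 8 did not differ beyond counting error (1.35-fold, interval 0.988 to 1.85). Clone 8 exceeded clone 14 (1.82-fold, interval 1.22 to 2.74), and clone 14 exceeded clone 6 (3.75-fold, interval 1.89 to 8.11). None of the 5 steps among the 6 low clones exceeded counting error, so their order is not resolved at this depth. On the log2(TPM + 1) scale, which compresses low levels, the range was 1.48.

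Chromosome 8 itself differed in level between clones. Its 711 other genes that averaged 1 CPM or more had median deviations from the median clone of 0.31 in clone 17, 0.28 in clone 8 and 0.32 in clone 14. Clone 10 was also at 0.26, but its Sox1 count of 10 was among the 6 low ones. In the remaining clones these genes lay between -0.21 and 0.00. After subtracting the chromosome median the range of Sox1 was 3.58.

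The expressed protein-coding genes nearest to Sox1 showed smaller differences. Tubgcp3, 214 kb away, had 62.3 CPM in clone 17, 64.7 in clone 8, 67.4 in clone 14 and 51.9 in clone 10, against 31.1 to 39 in the remaining 5. Ankrd10 and Arhgef7, on the other side, had ranges of 1.13 and 1.33, and Atp11a had a range of 0.64. Each of these ranges was below the 4.10 of Sox1.

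Tubb3 (chromosome 8, 123411424 to 123422015), the beta-tubulin isotype of neurons, was the most abundant and the steadiest member. Its level was 135 CPM in clone 10, 133 in clone 1, 131 in clone 6, 122 in clone 4, 119 in clone 17, 119 in clone 13, 115 in clone 14, 102 in clone 11 and 96.8 in clone 8. The highest clone exceeded the lowest by 1.39-fold (interval 1.3 to 1.5). A larger range was seen in 79.3% of all genes. Its main transcript held a mean share of 99.4% of its TPM, and Sox1 and Sox11 have 1 transcript each. Only 2 of the 8 steps between neighbouring clones exceeded counting error, from clone 6 to clone 4 and from clone 14 to clone 11. Of the 36 pairs of clones, 26 differed beyond it.

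Unlike its chromosome, Tubb3 was not higher in clones 8, 14 and 17. It deviated from its median clone by -0.30, -0.06 and 0.00 there, while the chromosome 8 median deviated by 0.28, 0.32 and 0.31. In clone 10, where the chromosome 8 median deviated by 0.26, Tubb3 was at its highest and deviated by 0.18. Relative to the chromosome, the range of Tubb3 was 0.94 log2 units, with clone 1 at 0.36 and clone 8 at -0.58. The neighbour Tcf25, 7.59 kb away, had 315, 290, 301 and 322 CPM in clones 8, 10, 14 and 17, against 165 to 202 in the remaining 5. Def8, 1.51 kb away on the other side, had 94.2, 84.8, 123 and 98.3 CPM there, against 63.8 to 76.2 elsewhere. Afg3l1 had 136, 140, 176 and 174 CPM there, against 63.3 to 115 elsewhere. Mc1r, 0.68 kb away, stayed at 0.559 to 2.25 CPM, too low to place the clones in order.

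**Figure D2:**
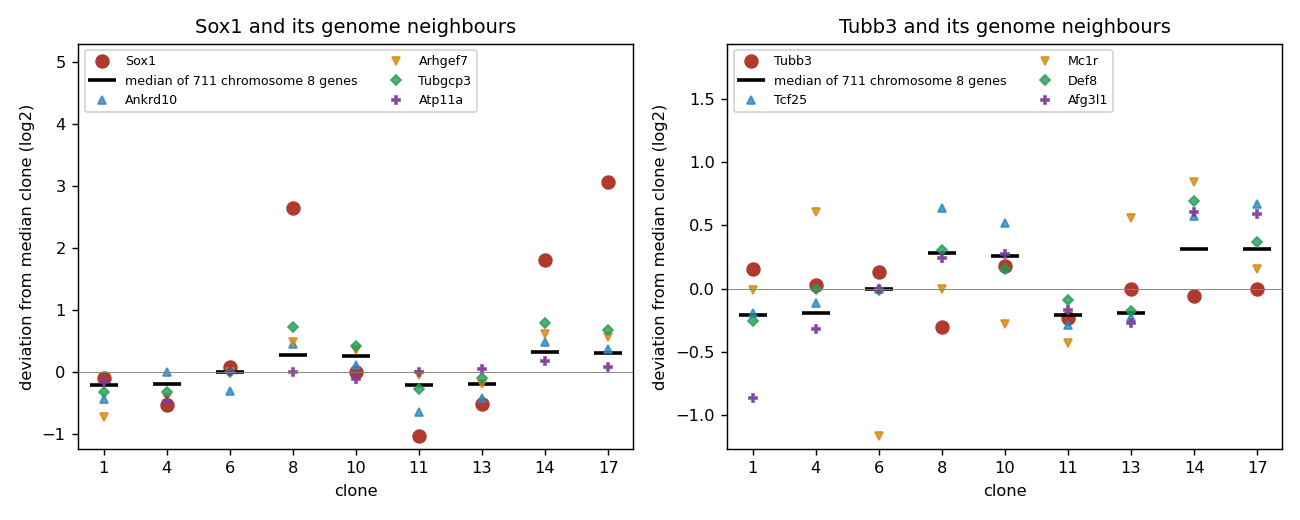
Deviation from the median clone (y axis, log2) by clone (x axis) for Sox1 (left) and Tubb3 (right) as red circles, with the median of 711 chromosome 8 genes as black bars and the nearest expressed genes as small symbols. Sox1 lies above its neighbours in clones 8, 14 and 17 (2.64, 1.81 and 3.06), whereas Tubb3 lies below the chromosome median in those clones.

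Tubb3 was not the main beta-tubulin of these cells. Tubb5 had a median of 1176 TPM, Tubb4b 923 TPM and Tubb2b 216 TPM, against 92.4 TPM for Tubb3. Tubb2a had a range of 0.79. Of 8 beta-tubulin genes, Tubb3 included, 6 passed the minimum of 1 CPM, and of these only Tubb6 had a range of 1 or more. Over all genes, 35.2% had such a range. Clones 10 and 11 had 133 and 143 CPM of Tubb6, against 36.4 to 56.9 in the other 7.

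Nes (chromosome 3, 87971078 to 87980451), which encodes nestin, was several-fold higher in clones 10 and 11 than in any other clone. Its CPM was 106 in clone 10 and 97.6 in clone 11, from 1464 and 1412 reads. It was 28.5 CPM in clone 4, 21.7 in clone 13, 21 in clone 6, 19.8 in clone 14, 15.4 in clone 8, 14.7 in clone 1 and 14.4 in clone 17. Clone 11 exceeded clone 4, the next in order, by 3.43-fold (interval 3.06 to 3.85), and clone 10 exceeded clone 17 by 7.32-fold (interval 6.31 to 8.53). Among the lower clones, clone 4 exceeded clone 13 and clone 14 exceeded clone 8, while the steps from clone 13 to 6 to 14 and from clone 8 to 1 to 17 were within counting error. Without clones 10 and 11, an alternative chosen after seeing the data, the range was 0.97.

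The Nes signal came from the full transcript. Nes-201, which encodes a protein of 1864 residues, held 87.1 to 100% of the TPM of the gene in the 9 clones. On the genome, Crabp2, a retinoic acid binding protein gene 17.7 kb away, had its highest levels in the same clones, 7.44 CPM in clone 10 and 8.85 in clone 11, against 2.36 to 6 elsewhere. Isg20l2, Gpatch4 and Naxe, the other expressed neighbours, had ranges of 0.43, 1.21 and 0.85.

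Genes with a pattern over the 9 clones like that of Nes were sought among protein-coding genes that averaged at least 1 CPM. Likeness was measured as the root mean square difference of median-centred log2 CPM, without a test. The nearest were Dsp, the desmosome protein desmoplakin (0.16), Crybg1 (0.23) and Bmp1, a procollagen-processing protease (0.24). Clones 10 and 11 had 196 and 199.5 CPM of Dsp, against 25 to 45.4 in the other 7.

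Many markers of mesenchyme and smooth muscle were also highest in clones 10 and 11. Of the 13 listed, 10 passed 1 CPM and all 10 had a range of 1 or more, against 35.2% of all genes. Col1a2, Col3a1, Acta2 and Cnn1 passed only through clones 10 and 11, so a wide range was a condition of their passing. The count of 10 was thus partly set by the filter. Col1a1, Col1a2, Col3a1, Acta2, Tagln, Cnn1 and Myl9 were each higher in both clone 10 and clone 11 than in any other clone, whereas Thy1, Pdgfra and Pdgfrb were not. Col1a1, a collagen chain, had 33.3 and 42 CPM there, against 0.656 to 7.14 elsewhere, Col1a2 had 8.74 and 7.81, against 0.0722 to 1.44, and Tagln, a smooth muscle actin-binding protein, had 36.7 and 53.8, against 1.66 to 4.79. Their summed TPM was 92.9 in clone 10 and 128 in clone 11, against 12.1 to 32.5 in the other 7. Lum and Postn, defining fibroblast genes, were at 0 counts in 7 of the 9 clones each. The clones with Postn counts were 10 (0.0722 CPM) and 11 (0.484 CPM), and those with Lum counts were 4 and 13. Acta2 and Col3a1 were at 0 in clone 17. Summed trophoblast markers, mainly Krt8 and Krt18, came to 428 TPM in clone 10 and 485 in clone 11, against 45 to 116 elsewhere, and primitive streak markers to 22.1 and 50 TPM, against 4.99 to 10.9. T (brachyury) had 9.17 CPM in clone 10 and 27.9 in clone 11, against 0.365 to 2.36 elsewhere, Wnt3 had 11.2 and 13.9, against 0.939 to 3.27, and Hand1 had 2.96 and 3.11, against 0.146 to 0.707. Eomes did not separate those clones, with 6.72 and 7.79 CPM, against 2.3 to 7.77 elsewhere. Evx1 did not either, with 1.81 and 1.59 CPM, against 1.34 to 3.39, and was highest in clone 17. Of the other trophoblast markers, Cdx2 had 3.11 and 5.6 CPM there, against 0.479 to 3.04. Tfap2c (42.3 and 58.2 CPM, against 37.6 to 83.7) and Gata3 (1.76 and 2.07, against 0.574 to 2.41) did not separate them. Elf5 did not either, with 0.732 and 0.395 CPM, against 0.373 to 1.61. Primitive endoderm markers came to 276 and 279 TPM, against 139.9 to 249.8 elsewhere, mainly through Sparc. In CPM their sums, 534 and 519, lay within the 397 to 536 of the other clones. Col4a1 was highest in clones 10 and 11 (122 and 83.3 CPM, against 31 to 60.4). Lama1 was lowest there (115 and 123 CPM, against 134 to 227). Gata4 was highest in clone 17 (3.1 CPM), Hnf4a in clone 13 (3.06 CPM) and Dab2 in clone 11 (7.74 CPM). The part of these markers, and of the lower stem cell markers, in the levels of Nes and of Sox11, described next, was not tested. In bulk RNA, more cells of a type and more RNA per cell cannot be told apart.

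Of 12 intermediate filament genes, Nes included, 11 passed the minimum and 10 had a range of 1 or more, against 35.2% of all genes. Clone 10 was highest for 5 of the 11 and clone 11 for 3, against 8.42% and 13.9% of all genes. Krt8 and Krt18, the keratins of simple epithelia, had the widest ranges besides Nefm. Krt8 had 277 CPM in clone 10 and 275 in clone 11, against 17.9 to 55.9 elsewhere, and Krt18 had 166 and 180, against 6.5 to 38.7. Nefm, the medium neurofilament subunit, had 10.2 CPM in clone 10 and 7.76 in clone 11, against 0.423 to 3.99 elsewhere. Vim, vimentin, the partner with which nestin assembles, was the most abundant at a median of 252 TPM. Clone 10 had 172 CPM of Vim and clone 11 had 309, the second-lowest and the highest of the 9 clones, so it did not follow Nes.

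Sox11 (chromosome 12, 27334264 to 27342574), a SoxC factor, was highest in the clones in which Nes was highest. Its CPM was 46.7 in clone 11 and 44.6 in clone 10. It was 23.2 in clone 17, 22.7 in clone 4, 19.5 in clone 13, 18.1 in clone 8, 18 in clone 14, 15.8 in clone 1 and 14.1 in clone 6. Clones 11 and 10 did not differ beyond counting error (1.05-fold, interval 0.939 to 1.17), and clone 10 exceeded clone 17 by 1.92-fold (interval 1.67 to 2.2). No step between neighbours among the 7 lower clones exceeded counting error, but clones further apart in the order did differ. Clone 17 exceeded clone 6 by 1.645-fold (interval 1.37 to 1.97). Of all 36 pairs of clones, 27 differed beyond counting error. Without clones 10 and 11 the range was 0.71.

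Among the 4 members with a range of 1 or more, Sox11 and Nes had the most alike patterns (0.60 log2 units) and Sox1 and Nes the least alike (2.2). Map2, which varied little, was nearer to Sox11 (0.58) than Nes was, as the distance also depends on the size of the differences. Among the many more genes outside the list, the nearest to Sox11 was Dusp5, a phosphatase that inactivates ERK, at 0.17. Gpx8 at 0.17 and Pxdn, the basement membrane enzyme peroxidasin, at 0.18 came next. Pxdn, on the same chromosome, had 67.4 CPM in clone 10 and 74.9 in clone 11, against 23.4 to 32.3 elsewhere. The expressed genes nearest to Sox11 on the chromosome lie 854 kb or more away. Of these, Rps7 and Rnaseh1 had ranges of 0.53 and 0.49, and Cmpk2 and Rnf144a had 1.77 and 1.2.

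Of 8 SoxB and SoxC genes, 7 passed the minimum, and Sox1, Sox11 and Sox3 were the 3 with a range of 1 or more. Such a range was seen in 35.2% of all genes. Sox2, the SoxB1 factor of the pluripotent state, had the highest level, a median of 202 TPM, and a range of 0.37. Sox3, the other SoxB1 factor, had 4.29 CPM in clone 11 and 3.25 in clone 10, against 1.63 to 2.89 elsewhere. The SoxC genes Sox4 and Sox12 had ranges of 0.91 and 0.22.

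**Figure D3:**
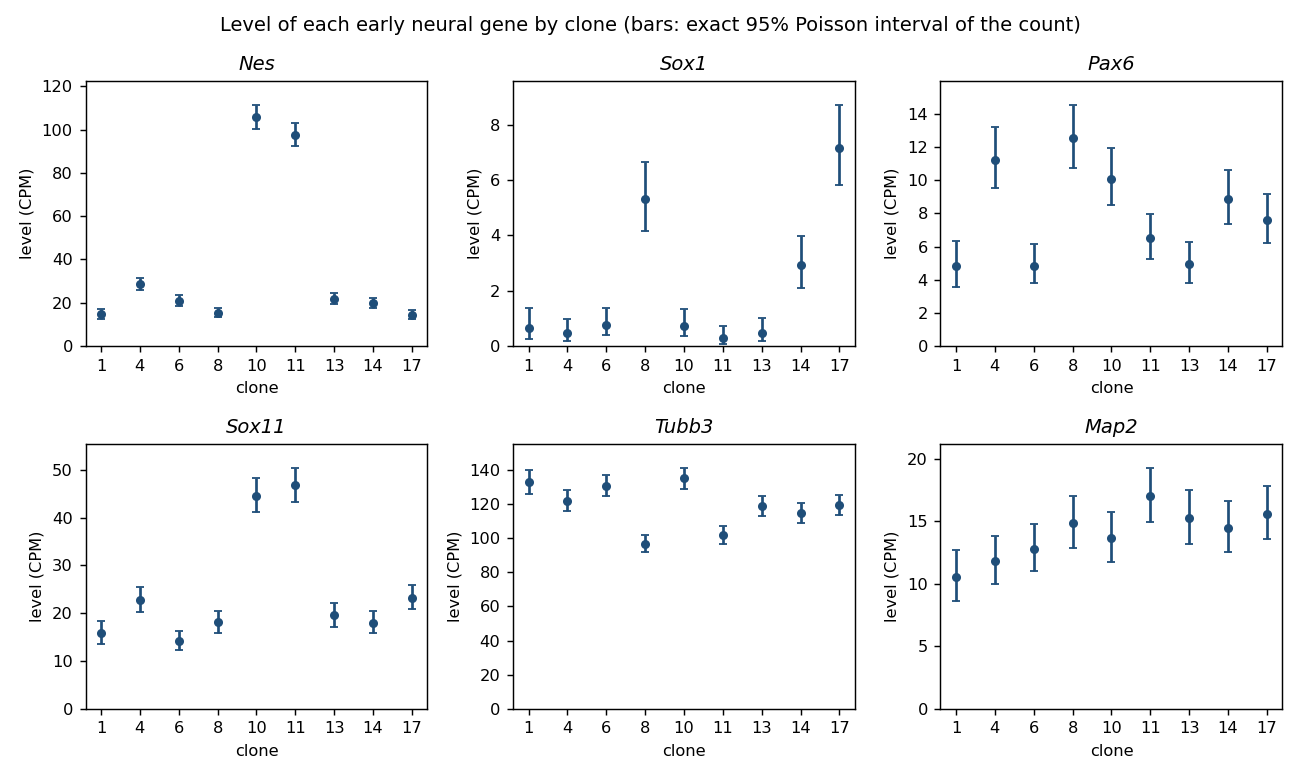
Level of each early neural gene (y axis, CPM, from 0) in each of the 9 clones (x axis). Points are single libraries and bars are exact 95% Poisson intervals of the count: Nes and Sox11 stand out in clones 10 and 11, Sox1 in clones 8, 14 and 17, and Tubb3 and Map2 stay within 1.39-fold and 1.62-fold.

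Pax6 (chromosome 2, 105668900 to 105697364), a paired-domain and homeodomain factor, followed neither pattern. Its level was 12.6 CPM in clone 8, 11.2 in clone 4, 10.1 in clone 10, 8.86 in clone 14, 7.58 in clone 17, 6.5 in clone 11, 4.94 in clone 13, 4.86 in clone 6 and 4.81 in clone 1. Counts lay between 50 in clone 1 and 175 in clone 8, a 2.61-fold difference (interval 1.9 to 3.66). None of the 8 steps between neighbouring clones exceeded counting error, although 23 of the 36 pairs of clones did. The levels thus formed a graded order without a gap, with clones 1, 6 and 13 at the low end.

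The transcripts of Pax6 were spread over many forms. Of 26 measured, 8 are full length, and the 4 of these without the alternative exon held 30.1 to 73.5% of the TPM of the gene. The main form was Pax6-204, which starts at 105675527 and held a median share of 31.8%. The short alternative exon printed above, whose inclusion changes the DNA-binding preference of the protein, was a minority form. It was in 32.1% of full-length counts in clone 8 (42 of 131, interval 24.2 to 40.8%), in 28.6% in clone 6 (12 of 42, interval 15.7 to 44.6%) and in 23.2% in clone 14 (23 of 99, interval 15.3 to 32.8%). It was in 18.5% in clone 4 (22 of 119, interval 12 to 26.6%), 17.5% in clone 11 (10 of 57, interval 8.75 to 29.9%) and 10.81% in clone 1 (4 of 37, interval 3.03 to 25.4%). The share was 7.5% in clone 17 (6 of 80, interval 2.8 to 15.6%) and 6.36% in clone 10 (7 of 110, interval 2.6 to 12.7%). In clone 13 it was 0 of 51 (interval 0 to 6.98%).

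The interval of clone 8 therefore lay above those of clones 10, 13 and 17, by counting error alone. The authors' tool divides reads among 26 overlapping transcripts, and that uncertainty is not in the intervals. Transcripts from the most upstream Pax6 start, among them the non-coding Pax6-210, held 47.7 counts in clone 8, 44.4 in clone 14, 41.7 in clone 10, 28.5 in clone 17 and 22.3 in clone 1. They held 9.63 to 15.5 counts in clones 4, 6 and 11, and 1.14 in clone 13.

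The patterns nearest to Pax6 were those of Olfr639 (0.20), Csrnp3 (0.24) and Vmn1r197 (0.25). Olfr639 and Vmn1r197 belong to chemoreceptor families with many similar copies, so their counts are uncertain. Csrnp3, on the same chromosome as Pax6, had 16 CPM in clone 4, 13.1 in clone 8 and, as its lowest, 7.47 in clone 1. Elp4, 3.66 kb from Pax6, stayed between 13.3 and 16.2 CPM, a range of 0.28. The other expressed neighbours, Wt1, Rcn1 and Immp1l, had ranges of 1.79, 0.86 and 0.64.

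Map2 (chromosome 1, 66175273 to 66442583), a microtubule-associated protein of dendrites, varied least after Tubb3. Its level was 17 CPM in clone 11, 15.6 in clone 17, 15.2 in clone 13, 14.8 in clone 8, 14.4 in clone 14, 13.7 in clone 10, 12.8 in clone 6, 11.8 in clone 4 and 10.5 in clone 1. Clone 11 exceeded clone 1 by 1.62-fold (interval 1.29 to 2.04), and no step between neighbouring clones exceeded counting error. Of the 36 pairs of clones, 12 differed beyond it, 4 of them between clone 11 and clones 10, 6, 4 and 1. A larger range was seen in 58.6% of all genes. Its expressed neighbours Idh1, Pikfyve, Rpe and Kansl1l had ranges of 0.68, 0.33, 0.51 and 1.04.

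Nearly all full-length Map2 was the short form. The long form, the type of mature dendrites, held 2.53 to 16.2 counts per clone. Short forms with the alternative exon printed above held 91.8 to 184 counts, and the main one, Map2-207, starts at 66251647 and encodes 498 residues. The exon was in all rounded full-length short-form counts in clones 1, 4, 6, 13 and 14, in 98.9% in clone 8 and in 99.4% in clone 10. It was in 86.8% in clone 11 (184 of 212, interval 81.5 to 91%) and 84.4% in clone 17 (152 of 180, interval 78.3 to 89.4%). These intervals lay below those of the other 7 clones, within the limit that reads were divided among 24 transcripts. Short or partial models held 24.3 to 57.8% of Map2 TPM but 11.6 to 30.8 counts, because TPM weighs short transcripts more. By mean share of TPM, Map2-207 held 38.5% and the short Map2-218 held 22.4%, and a further full-length and a further partial transcript held 10.4% and 10.2%.

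**Figure D4:**
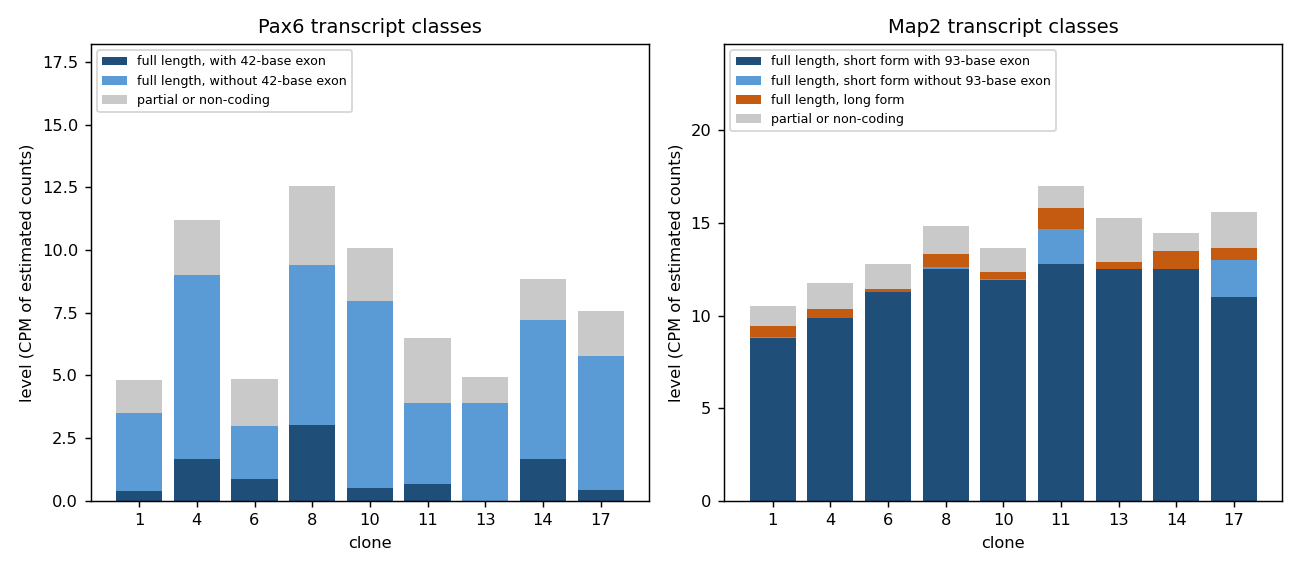
Levels of transcript classes (y axis, CPM of estimated counts, stacked) of Pax6 (left) and Map2 (right) in each clone (x axis). Dark blue marks full-length transcripts with the alternative exon, which is a minority in Pax6, 0 in clone 13, and the bulk of Map2; transcripts without it appear in Map2 mainly in clones 11 and 17.

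Of 11 microtubule-associated protein genes, Map2 included, 10 passed the minimum, with a median range of 0.64, and of these only Mapt, tau, had a range of 1 or more. Stmn1 and Map1s followed at 0.98 and 0.94. Over all genes, 35.2% had a range of 1 or more. Clones 1, 13 and 6 had 24.4, 25.1 and 18.5 CPM of Mapt, against 4.05 to 7.81 in the other 6. The patterns nearest to Map2 were those of Usp42 (0.06), Btbd3 (0.07) and Fbxo11 (0.08). Those nearest to Tubb3 were Cc2d1b (0.07), Uxt (0.08) and Mtrf1 (0.08). As both genes varied little, 3195 genes lay within 0.25 log2 units of Map2 and 4534 within that distance of Tubb3, against 3 for Nes and 0 for Sox1. The nearest to Sox1 were Olfr769 (0.49) and Pkhd1 (0.53). Clones 17, 8 and 14 had 7.15, 6.02 and 5.18 CPM of Pkhd1, against 0.361 to 0.848 in the rest.

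**Figure D5:**
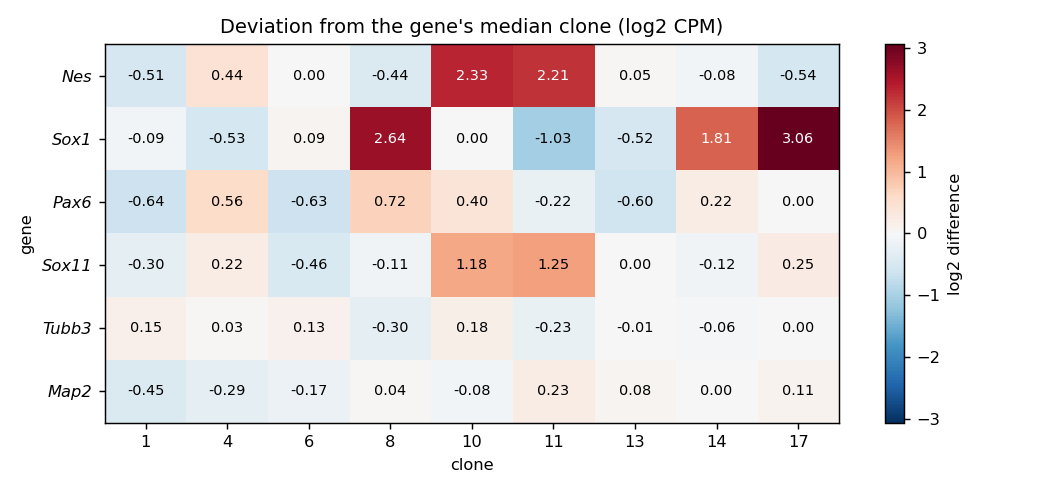
Deviation of each early neural gene (rows) from its own median clone in each clone (columns), in log2 CPM, red above and blue below. Sox1 is highest in clones 8, 14 and 17. Nes and Sox11 are highest in clones 10 and 11, and Sox11 is next highest in clone 17 (0.25).

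Further neural genes ranged from 0 counts in most clones to the abundant Vim described above. Of 26 other neural progenitor genes, 14 passed 1 CPM, 12 had a range of 1 or more and 3 a range of 2 or more. Over all genes these shares were 35.2% and 7.92%. The forebrain and neurogenic factors Six3, Neurog2, Olig2 and Emx2 were at 0 counts in 5, 8, 6 and 4 of the 9 clones. Pou3f1 (Oct6) had 25.8 CPM in clone 10 and 31.6 in clone 11, against 2.96 to 9.95 elsewhere. Prom1, the CD133 antigen, had 28.1 and 25.7 CPM there, against 6.14 to 14.8 elsewhere. Meis2 had 5.59 CPM in clone 8, 3.98 in clone 14 and 4.12 in clone 17, against 0.919 to 2.53 elsewhere. Clone 11 was highest for 4 of the 14 genes (13.9% of all genes), clone 1 for 3 (12.4% of all), clone 8 for 3 (15.2% of all) and clone 10 for 2 (8.42% of all).

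Of 20 neuronal genes, 15 passed the minimum, 13 had a range of 1 or more and 4 a range of 2 or more. The shares over all genes were 35.2% and 7.92%. Dcx, the marker of migrating neurons, averaged 0.124 CPM and Slc17a6 0.0739 CPM. Stmn2 had the highest level, a median of 55.1 TPM, and ran from 38.6 CPM (clone 17) to 123 CPM (clone 4). Stmn3 had 32 CPM in clone 17, 23.7 in clone 8 and 19.5 in clone 14, against 5.46 to 14 elsewhere. Clone 4 was highest for 4 of the 15 genes (15.2% of all genes), and clones 10, 11 and 17 for 3 each (8.42%, 13.9% and 11.7% of all).

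Of 10 glial genes, 6 passed the minimum and 5 had a range of 1 or more, against 35.2% of all genes. Slc1a3, a glutamate transporter, had the highest level at a median of 9.88 TPM. Clones 8, 17 and 14 had 25.4, 24.3 and 18.8 CPM of it, against 8.96 to 17.4 elsewhere. Mbp was lowest in the same clones, with 1.95, 1.72 and 2.43 CPM, against 5.16 to 7.91 elsewhere. Cspg4 ran from 0.361 CPM (clone 17) to 2.12 CPM (clone 6), and Aqp4 was at 0 counts in 6 of the 9 clones.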

How the data were processed

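Each of the 9 clones entered as 1 RNA-seq sample without a group. Per the labels' protocols, a stranded kit for mRNA was used. Kallisto 0.43.1, Trimmomatic 0.33, FastQC and CASAVA 1.8 are named in the submitters' processing notes, as are the builds GRCm38 and mm10. The deposited tables hold an estimated count and a TPM value for 115270 transcripts, per the file headers. TPM values were scaled for length and depth by the authors' tool. Transcript lengths and effective lengths were deposited with them.

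GENCODE M21 held the Ensembl identifier of 98.53% of transcripts, and values were summed per gene symbol. Counts were rounded for normalization (edgeR 4.0.16 TMM, R 4.3.3), for chi-square tests and for exact intervals. The fewest genes that differed beyond counting noise between any 2 libraries was 1572, so no library was taken as a copy. Chromosome medians leave out the members. Calculations ran in scipy 1.17.1, pandas 2.3.3 and numpy 2.4.6 under Python 3.11.15 and were tested on simulated data; DESeq2 1.42.0 gave alternative size factors. Members, lists and the rule for named genes were chosen with earlier results of these data known. That rule took the 6 members, their transcripts with a mean share of 10% or more, the 3 genes of nearest pattern, the 2 nearest expressed genes on each side, and per list the 3 genes of widest range and the one of highest mean TPM. Pou5f1, Sox2 and Rest were added. For Sox1, 1 gene of nearest pattern is not reported here. Other genes (Sox4, Sox12, Tubb4b, Six3, Neurog2, Olig2, Emx2, Dcx, Slc17a6, Lum, Postn, Col3a1, Cnn1, Myl9, Thy1, Pdgfra, Pdgfrb, Col4a1, Lama1, Cdx2, Tfap2c, Gata3, Elf5, Aqp4, Esrrb, Zfp42, Klf4, Tdgf1, Evx1 and Lefty1) were named after their values were seen. Exon sequences are from GENCODE and promoter windows from RefSeq, GRCm38.p6. Of annotated genes whose exons overlap a member, Gm10558 on the opposite strand of Map2 and the miRNA gene Gm25239 within Sox1 were not analysed here.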

Additional observations from a re-analysis of the deposited data

How the results depend on the processing

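Of 90 recomputed ranges of the 6 members, 85 stayed within the counting interval of the highest-to-lowest fold. Most of the 90 left out 1 clone, which cannot change a range unless that clone is the highest or the lowest. The count of 85 was thus largely fixed in advance. With log2(TPM + 1) the range of Nes was 2.61 and that of Sox1 1.48, and with the chromosome median subtracted that of Tubb3 was 0.94. Without clones 10 and 11, chosen after seeing the data, Nes was at 0.97 and Sox11 at 0.71. With each clone left out in turn the ranges were 2.75 to 2.86 for Nes, 3.59 to 4.10 for Sox1, 1.2 to 1.36 for Pax6, 1.56 to 1.72 for Sox11, 0.41 to 0.48 for Tubb3 and 0.52 to 0.68 for Map2. Genes with a range of 1 or more numbered 4710, against 11585 without a filter and 2423 with a minimum of 5 CPM. Those with a range of 2 or more numbered 1058, against 2713 without a filter, 353 at 5 CPM and 424 with log2(TPM + 1). With the minimum of 5 CPM, which Sox1 did not pass, and with log2(TPM + 1), 1 member had a range of 2 or more in place of 2. Of 187 recomputed counts of list genes with a range of 1 or more, 176 stayed within 1.5 times, and the others came without a filter or with log2(TPM + 1). Centring on the mean clone, chosen after seeing the data, left the chromosome-relative ranges of Sox1 and Tubb3 as they were within counting error. No paired analysis was possible because the labels give the clones no groups. With 4 to 11 counts, the order of Sox1 among its 6 low clones is beyond this depth.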

Other observations

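Genes of the signals known to act on neural induction were read as well. Over all genes, 35.2% had a range of 1 or more and 7.92% a range of 2 or more. Of 13 BMP and Id genes, 7 had a range of 1 or more. Id1, an inhibitor of neurogenic factors, had 154 CPM in clone 17, 96.5 in clone 14, 93.8 in clone 10, 81.9 in clone 8 and 55.9 in clone 11, against 25.1 to 44.6 in the other 4. Bmp4 had 118 CPM in clone 17, 89.7 in clone 8, 69 to 76.4 in clones 14, 13, 1 and 6, and 30.1 to 36.5 in clones 10, 11 and 4. Id2 ran from 16 CPM (clone 1) to 49 CPM (clone 17). Of 10 listed antagonists of signals that act on neural induction, 6 passed the minimum and 5 had a range of 1 or more. Lefty2, a Nodal inhibitor, had 70.8 CPM in clone 17, 142 in clone 8, 135 in clone 14, 162 in clone 10 and 177 in clone 11. In clones 1, 4, 6 and 13 it had 425.5 to 506 CPM. Lefty1 had 54.4 to 102.6 CPM in clones 17, 8, 14, 10 and 11, against 156 to 173 in clones 1, 4, 6 and 13. Sfrp1, a Wnt inhibitor, had 122, 111 and 80.7 CPM in clones 17, 8 and 14, against 25.1 to 51 elsewhere. Fst, follistatin, had 11.3 CPM in clone 11, against 2.12 to 6.5 in the other 8.

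Of 15 Notch pathway genes, 12 passed the minimum, 5 had a range of 1 or more and 0 a range of 2 or more. Over all genes these shares were 35.2% and 7.92%. Dll3, a Notch ligand of the embryo, had 6.47 CPM in clone 10 and 5.56 in clone 11, against 1.79 to 4.68 elsewhere, whereas Notch4 was lowest there, with 17.1 and 16.7 CPM, against 27.4 to 46.4. Hey1 ran from 2.96 CPM (clone 17) to 8.2 CPM (clone 6), and Rbpj, the most abundant per length at a median of 104 TPM, had a range of 0.61. Rest, the repressor of neuronal genes in non-neural cells, ran from 602 CPM (clone 11) to 775 CPM (clone 8), a range of 0.36. Its partner Rcor2 had a range of 1.53, with its lowest level, 100.5 CPM, in clone 8 and its highest, 291 CPM, in clone 4. Hdac1 and Ctdsp1, of the same list of 10, had ranges of 1.1 and 1.03.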
